A study of Mus musculus with 12 samples.

Results

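Solute carriers are membrane proteins that move amino acids, sugars, ions, nucleotides and organic acids across the plasma membrane and the membranes of organelles. The genes described here were chosen by symbol, as those starting with Slc and a digit in the deposited lists of genes that differ between tdTomato- and tdTomato+ group 2 innate lymphoid cells (ILC2s). These were 32 of 3439 listed genes, 20 of 2906 listed as lower and 12 of 533 listed as higher in tdTomato+ ILC2s. ILC2s are tissue lymphocytes that answer epithelial alarm cytokines with type 2 cytokines. Both groups were lung ILC2s of male TIGIT-Cre-ERT2:Rosa26-LSL-tdTomato mice, and both received papain, the protease used as allergen, and tamoxifen. The Cre-ERT2 cassette is carried by the Tigit gene, so that tamoxifen makes any cell that then expresses TIGIT carry tdTomato for good. The comparison is therefore within 1 genotype and 1 treatment, between cells with and without the fate mark, and the age of the mice is not given in the sources used here. The labels name 4 RNA libraries of each population, made from small numbers of sorted cells with a stranded low-input kit, and 2 chromatin accessibility libraries of each, which are not analysed here.

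The lists are the outcome of the authors' own comparison, and a gene's direction is given here as they listed it. The average level of a gene is the authors' log2 CPM (reads of the gene scaled to the size of the library) over the libraries of their fit, both populations included, so it is no level of either population. No value of a single library is in the tables, so no spread between replicates, depth or test is given, and all that follows is a description. In bulk libraries, fewer cells of a type and less RNA per cell cannot be told apart. The lowest average level in the tables was a log2 CPM of 5.00, and a gene that is not listed may have been below such a limit or may have missed the authors' threshold for a difference.

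Activated lymphocytes are known to take up more amino acids and glucose, which feed protein synthesis, glycolysis and the mitochondria. Several plasma membrane carriers of amino acids work as pairs of a heavy chain and a light chain, of which the light chain selects the substrate. The mitochondrial carriers, the Slc25 family, exchange phosphate, nucleotides, cofactors and metabolites across the inner mitochondrial membrane. Sodium-coupled carriers and exchangers of ions draw on gradients that the P-type pumps build.

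Of 372 solute carrier genes in the annotation, 5.38% were listed as lower and 3.23% as higher, and 340 were in neither list. Of 22028 annotated protein-coding genes, 13.2% were listed as lower and 2.30% as higher. Among the 32 listed solute carrier genes 37.5% were in the higher list, whereas 15.5% of all listed genes were. This order depended on genes of low average level. Among genes with an average log2 CPM of at least 5.5, a limit set after the values were seen, 15% of the solute carrier genes and 10.5% of all listed genes were higher, and at 6 or more the order turned, with 0 of 13 solute carrier genes and 5.69% of all listed genes higher. The directions are given by transport group, each with few listed genes. Amino acid carriers had members in both lists, with 8 lower and 5 higher of 59 annotated, and so had ion carriers, with 4 lower and 4 higher of 89. The mitochondrial carriers were listed as lower only, 6 of 47, and the sugar carriers had 1 lower gene of 25. The carriers of nucleosides, nucleobases and nucleotide sugars, called nucleotide carriers here, had 1 higher gene of 27, and the carriers of organic solutes such as monocarboxylates had 2 higher genes of 112. The share of annotated genes listed as lower was 13.6% for amino acid carriers and 12.8% for mitochondrial carriers, both near the share of all protein-coding genes. It was 4.49% for ion carriers and 4.00% for sugar carriers. The share listed as higher was 8.47% for amino acid carriers and 4.49% for ion carriers, beside 2.30% of all protein-coding genes. For nucleotide carriers it was 3.70%, for organic solute carriers 1.79%, and for mitochondrial and sugar carriers 0. These rest on 2 genes or fewer and lie near that share.

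**Figure D1:**
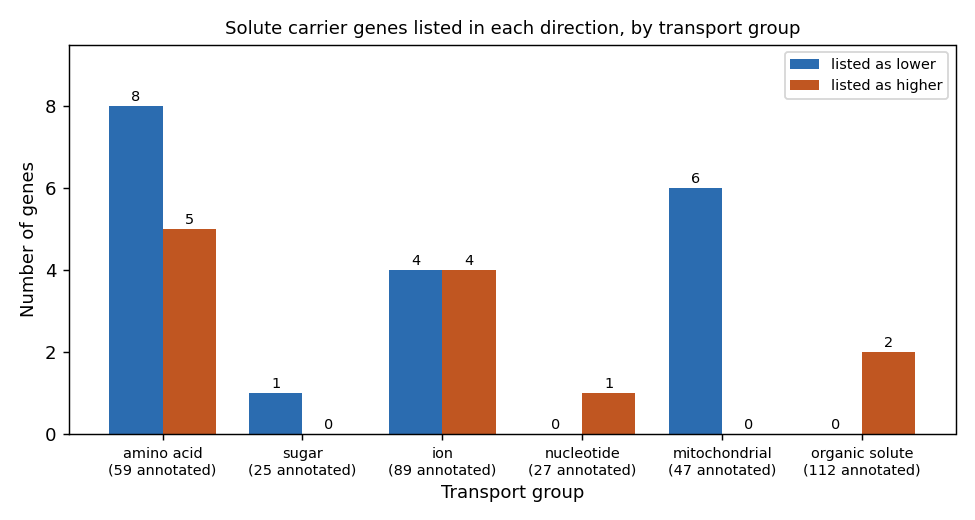
Number of solute carrier genes (vertical axis) listed as lower (blue) and as higher (orange) in tdTomato+ ILC2s in each transport group (horizontal axis, with the number of annotated genes). Amino acid carriers have 8 lower and 5 higher genes, ion carriers 4 of each, and mitochondrial carriers 6 lower and 0 higher. The scaffold gene Slc9a3r1, which is no carrier, is left out.

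The 32 genes belong to 18 of 49 annotated families, where a family is the set of genes with the same number after Slc. Of these, 8 families had lower genes only, 7 had higher genes only, and 3 had genes in both lists. These 3 were Slc1, with 1 lower and 2 higher genes of 7, Slc4, with 1 of each among 11, and Slc7, with 2 of each among 16. The other 31 families had none, among them the nucleotide sugar and orphan carriers of Slc35 (0 of 27), the organic ion carriers of Slc22 (0 of 25) and the zinc exporters of Slc30 (0 of 10).

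The promoters of 5 genes from the Slc7 and Slc4 families are shown, since these families have genes in both lists and their promoters differ in CpG content. Each is the window from 250 bases before to 50 bases after a transcript start, from RefSeq on GRCm38.p6, read 5′ to 3′ on the gene's strand, with CpG dinucleotides in capitals. Slc7a8 (chr14:54781837-54782136, minus strand), Slc7a1 (chr5:148399855-148400154, minus strand) and Slc4a7 (chr14:14718534-14718833, plus strand) were listed as lower, and Slc7a11 (chr3:50443564-50443863, minus strand) and Slc4a4 (chr5:88887010-88887309, plus strand) as higher.
Slc7a8: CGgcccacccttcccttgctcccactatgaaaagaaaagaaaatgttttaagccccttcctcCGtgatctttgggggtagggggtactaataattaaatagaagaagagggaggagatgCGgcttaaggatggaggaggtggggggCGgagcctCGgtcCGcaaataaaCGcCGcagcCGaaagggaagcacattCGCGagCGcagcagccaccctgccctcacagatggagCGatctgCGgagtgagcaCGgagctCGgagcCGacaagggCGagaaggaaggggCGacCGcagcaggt
Slc7a1: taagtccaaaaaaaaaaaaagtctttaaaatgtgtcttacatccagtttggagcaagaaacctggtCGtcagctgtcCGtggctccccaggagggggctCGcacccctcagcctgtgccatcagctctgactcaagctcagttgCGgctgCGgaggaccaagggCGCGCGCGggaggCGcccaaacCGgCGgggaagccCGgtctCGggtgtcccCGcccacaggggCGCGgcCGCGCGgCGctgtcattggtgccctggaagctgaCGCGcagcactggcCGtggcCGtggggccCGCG
Slc7a11: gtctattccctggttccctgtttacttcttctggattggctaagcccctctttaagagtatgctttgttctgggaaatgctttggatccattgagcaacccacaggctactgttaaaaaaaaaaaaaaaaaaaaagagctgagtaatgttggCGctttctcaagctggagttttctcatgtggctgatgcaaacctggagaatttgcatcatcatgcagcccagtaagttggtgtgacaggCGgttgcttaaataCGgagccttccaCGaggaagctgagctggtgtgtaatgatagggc
Slc4a7: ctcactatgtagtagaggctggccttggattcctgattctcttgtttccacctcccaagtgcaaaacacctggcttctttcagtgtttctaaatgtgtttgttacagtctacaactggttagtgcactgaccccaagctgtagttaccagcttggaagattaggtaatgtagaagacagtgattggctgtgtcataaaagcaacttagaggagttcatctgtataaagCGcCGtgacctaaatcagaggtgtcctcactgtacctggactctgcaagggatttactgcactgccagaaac
Slc4a4: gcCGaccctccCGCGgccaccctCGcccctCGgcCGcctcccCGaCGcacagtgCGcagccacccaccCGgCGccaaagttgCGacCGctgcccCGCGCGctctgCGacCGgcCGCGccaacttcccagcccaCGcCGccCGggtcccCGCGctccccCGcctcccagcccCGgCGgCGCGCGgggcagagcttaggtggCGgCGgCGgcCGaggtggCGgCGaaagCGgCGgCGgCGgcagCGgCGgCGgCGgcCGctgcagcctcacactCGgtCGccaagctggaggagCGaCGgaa
The windows of Slc7a8 and Slc7a1 held 20 and 27 CpG, and that of Slc7a11 held 4. Within Slc4 the order was the opposite, with 2 CpG for Slc4a7, listed as lower, and 50 for Slc4a4, listed as higher. The transcript start of the Slc4a7 window lies 16505 bases inside the annotated span of the gene (GRCm38, chromosome 14, 14702279 to 14799940). This window thus belongs to a start other than the first one. The transcript start of the Slc4a4 window lies 442 bases inside its gene, and those of the Slc7 genes lie within 60 bases of the annotated start.

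The lower amino acid carriers included both chains of a heteromeric transporter. Slc7a8, a light chain for neutral amino acids (chromosome 14, 54722209 to 54781946 on GRCm38), had an average log2 CPM of 7.85. Slc3a2, the heavy chain that carries Slc7 light chains to the cell surface (chromosome 19, 8706882 to 8723369), had 6.36. Per kb of exon, which allows genes to be compared, the average levels were 46.2 CPM for Slc7a8 and 23.2 CPM for Slc3a2. Slc7a8 had the highest level per kb of exon of all amino acid carriers listed, and Slc3a2 the next. Per kb of coding length Slc7a8 was also the highest (145 CPM). Slc3a2 (48.3 CPM) then lay below Slc38a1 (140 CPM), Slc43a2 (55.0 CPM) and Slc38a2 (53.5 CPM). Slc7a5 and Slc7a6, light chains for large neutral and for cationic and neutral amino acids, were in neither list.

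Glutamine and other small neutral amino acids enter lymphocytes through sodium-coupled carriers, of which the Slc38 family had 3 lower genes of 11 and no higher gene. Slc38a1 had an average log2 CPM of 7.67, Slc38a2 6.34 and Slc38a10 6.24. Both Slc38a1 and Slc38a2 are glutamine transporters of the plasma membrane, and they lie close together on chromosome 15 (96571418 to 96642913 and 96687392 to 96699730). Per kb of exon the 3 genes were close, at 11.8, 9.16 and 11.8 CPM. Per kb of coding length they were far apart, at 140, 53.5 and 23.2 CPM. The exonic length of Slc38a1, 17236 bases, is the union of its exons, and its longest transcript has 7266 bases. The part of length in the level of Slc38a1 was not tested. Slc43a2, a facilitative carrier of large neutral amino acids, had an average log2 CPM of 6.55 and 9.34 CPM per kb.

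The Slc1 and Slc7 families split between the lists. Slc1a5, a sodium-dependent exchanger of glutamine and other neutral amino acids (chromosome 7, 16781340 to 16798274), was listed as lower with an average log2 CPM of 5.47 and 10.6 CPM per kb. Slc1a2 and Slc1a3, the glutamate transporters best known from astrocytes, were listed as higher with an average log2 CPM of 5.42 and 5.14. Their levels per kb were 3.26 and 4.12 CPM, both below that of Slc1a5. In the Slc7 family, Slc7a1, the constitutive carrier of arginine and lysine, was listed as lower with an average log2 CPM of 6.12 (6.01 CPM per kb). Its inducible relative Slc7a2 was listed as higher with 5.06 (3.64 CPM per kb). Slc7a11, the light chain that imports cystine in exchange for glutamate and needs Slc3a2 as heavy chain, was also listed as higher. It had an average log2 CPM of 5.36 and 2.95 CPM per kb of exon, the lowest of all 32 genes. Per kb of coding length it had 27.3 CPM, and the lowest was Slc26a3 with 15.05 CPM. The light chain Slc7a11 and the heavy chain Slc3a2 were thus in opposite lists. The 5th higher gene of the group, Slc6a15, a sodium-dependent carrier of branched-chain amino acids and proline known from the brain, had an average log2 CPM of 5.09 (4.39 CPM per kb).

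Over the whole group, the median average level per kb was 11.2 CPM for the 8 lower genes and 3.64 CPM for the 5 higher genes. The level per kb of exon of each lower amino acid carrier was above that of each higher one. Per kb of coding length this did not hold. The lower genes Slc38a10 (23.2 CPM) and Slc1a5 (26.7 CPM) then lay below the higher gene Slc7a11 (27.3 CPM).

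The single sugar carrier listed was Slc2a3, a glucose transporter of high affinity, which was listed as lower with an average log2 CPM of 5.93 and 8.45 CPM per kb. It lies on chromosome 6 (122727809 to 122801640). The glucose transporter Slc2a1 was in neither list, nor were the lactate and pyruvate carriers Slc16a1 and Slc16a3.

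**Figure D2:**
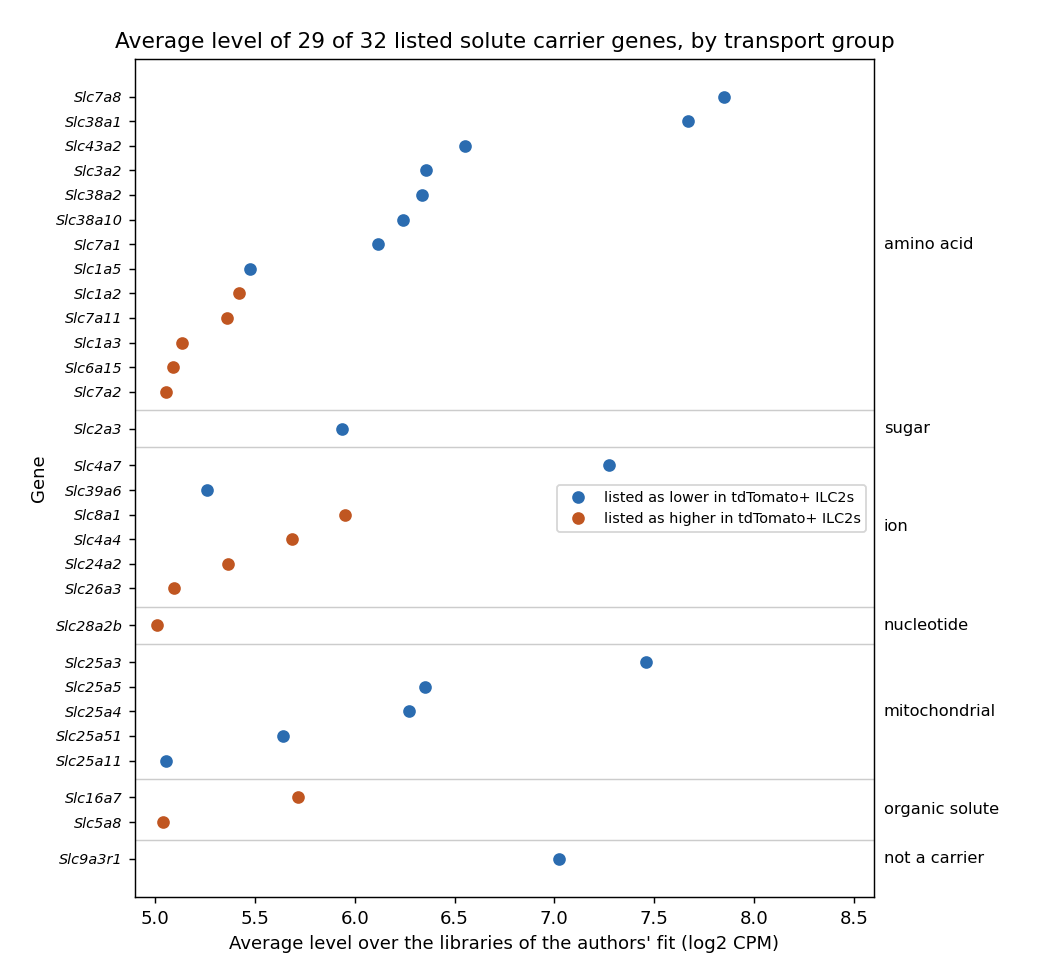
Average level of 29 of the 32 genes (horizontal axis, log2 CPM over the libraries of the authors' fit), in rows by transport group, for genes listed as lower (blue) and as higher (orange) in tdTomato+ ILC2s. Slc7a8 lies at 7.85 and all 12 higher genes lie at or below 5.95. CPM is not corrected for gene length.

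Of the ion carriers listed as lower, 2 are described here. Slc4a7, which imports sodium with bicarbonate, had an average log2 CPM of 7.28 and 10.2 CPM per kb. Slc39a6, a zinc importer, had 5.26 and 9.39 CPM per kb.

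Among the ion carriers listed as higher, 2 export calcium in exchange for sodium. Slc8a1, the sodium and calcium exchanger best known from heart muscle, had an average log2 CPM of 5.95 and 3.29 CPM per kb. Slc24a2, which exchanges sodium for calcium and potassium and is known from neurons and the retina, had 5.36 and 3.37 CPM per kb. Slc4a4, a sodium and bicarbonate cotransporter of kidney, pancreas and glia, had 5.69 and 4.76 CPM per kb. Slc26a3, an exchanger of chloride and bicarbonate in the gut, had 5.10 and 5.37 CPM per kb. The bicarbonate carriers of the Slc4 family were thus in opposite lists, with a level per kb of 10.2 CPM for Slc4a7 and 4.76 CPM for Slc4a4. The median level per kb of exon was 9.79 CPM for the 4 lower and 4.07 CPM for the 4 higher ion carriers. On this scale each of the 4 lower genes lay above the highest of the higher genes, Slc26a3. Per kb of coding length the lists overlapped, with the lower gene Slc39a6 (16.7 CPM) below the higher gene Slc8a1 (21.2 CPM).

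The only nucleotide carrier listed was Slc28a2b, a gene of the concentrative nucleoside transporters (chromosome 2, 122484941 to 122528040). It was listed as higher with an average log2 CPM of 5.01 and 6.45 CPM per kb. Of its 50-base stretches, 40.6% also occur in Slc28a2, its neighbouring paralog, which is in neither list, so reads of these genes may have been split or lost in counting. The equilibrative nucleoside transporter Slc29a1 was in neither list.

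All 6 mitochondrial carriers listed were lower, 12.8% of the 47 annotated and near the 13.2% of all protein-coding genes. The family included the carriers on which ATP synthesis depends. Slc25a3, the phosphate carrier, had an average log2 CPM of 7.46 and 31.7 CPM per kb. Slc25a5 and Slc25a4, which exchange ADP for ATP across the inner membrane, had 6.35 and 6.27, and 49.7 and 32.9 CPM per kb. These 3 genes had the highest levels per kb of the mitochondrial group. For Slc25a5, 46.6% of the 50-base stretches also occur in 9 other annotated genes, the largest share in Gm5560 (29.1%), so its count is uncertain, whereas for Slc25a4 none do.

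The other mitochondrial carriers listed as lower included carriers of a cofactor and of metabolites. Slc25a51, the carrier of NAD, had an average log2 CPM of 5.64 and 9.05 CPM per kb. Slc25a11, the exchanger of oxoglutarate and malate that is part of the malate-aspartate shuttle, had 5.05 and 15.7 CPM per kb. The citrate carrier Slc25a1 was among the 41 mitochondrial carriers in neither list. The median level per kb of the 6 genes was 23.7 CPM, against 15.4 CPM for all genes listed as lower.

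Both carriers of organic solutes that were listed were higher (1.79% of 112, beside 2.30% of all protein-coding genes), and both move monocarboxylates. Slc16a7, a proton-coupled carrier of pyruvate and lactate, had an average log2 CPM of 5.71 and 4.44 CPM per kb. Slc5a8, best known as a sodium-coupled carrier of short-chain fatty acids and lactate, although the table describes it as an iodide transporter, had 5.04 and 6.16 CPM per kb. The last gene, Slc9a3r1, bears a solute carrier symbol but encodes a scaffold protein that binds carriers and other membrane proteins. It was listed as lower, with an average log2 CPM of 7.03 and 67.6 CPM per kb of exon, the highest of the 32 genes. Per kb of coding length it had 122 CPM, below Slc25a3 (164 CPM), Slc7a8 (145 CPM) and Slc38a1 (140 CPM).

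The genes of both lists differed in level and length, which the choice by symbol did not use. The median average level per kb of exon was 11.6 CPM for the 20 lower genes (range 5.75 to 67.6) and 4.26 CPM for the 12 higher genes (range 2.95 to 6.45). For all listed genes the medians were 15.4 and 4.54 CPM. Of the 20 lower genes, 18 lay above every higher gene per kb of exon, and 2, Slc7a1 among them, lay within their range. Per kb of coding length the ranges overlapped more, from 16.67 to 164 CPM for the lower and from 15.05 to 36.18 CPM for the higher genes. The median exonic length was 5417 bases for the lower genes and 9975 bases for the higher genes, with 10 of the 12 higher genes at 6000 bases or more. The exceptions were Slc28a2b with 4996 and Slc5a8 with 5331 bases. Over all listed genes the median exonic lengths were 5194 and 10482 bases, so the solute carrier genes of each list had lengths near those of their list.

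The share of higher genes among the listed ones depended on length in the whole tables. It was 5.34% of 262 genes under 2000 bases, 1.34% of 747 genes of 2000 to 4000 bases, 3.83% of 784 genes of 4000 to 6000 bases and 29.1% of 1644 genes of 6000 bases or more. In the same bins, solute carrier genes numbered 2 lower and 0 higher, 3 lower and 0 higher, 7 lower and 2 higher, and 8 lower and 10 higher. The part of gene length in the listing was not tested. Differences were also seen in the span of the gene on the chromosome. The median span was 20889 bases for the lower and 107586 bases for the higher genes, against 28647 and 146558 bases for all listed genes. No lower gene spanned over 100 kb, whereas 6 higher genes did. These were Slc7a11 with 551 kb, Slc8a1 with 365 kb, Slc4a4 with 353 kb, Slc24a2 with 247 kb, Slc16a7 with 170 kb and Slc1a2 with 132 kb. The solute carrier genes in neither list had a median span of 28334 bases.

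**Figure D3:**
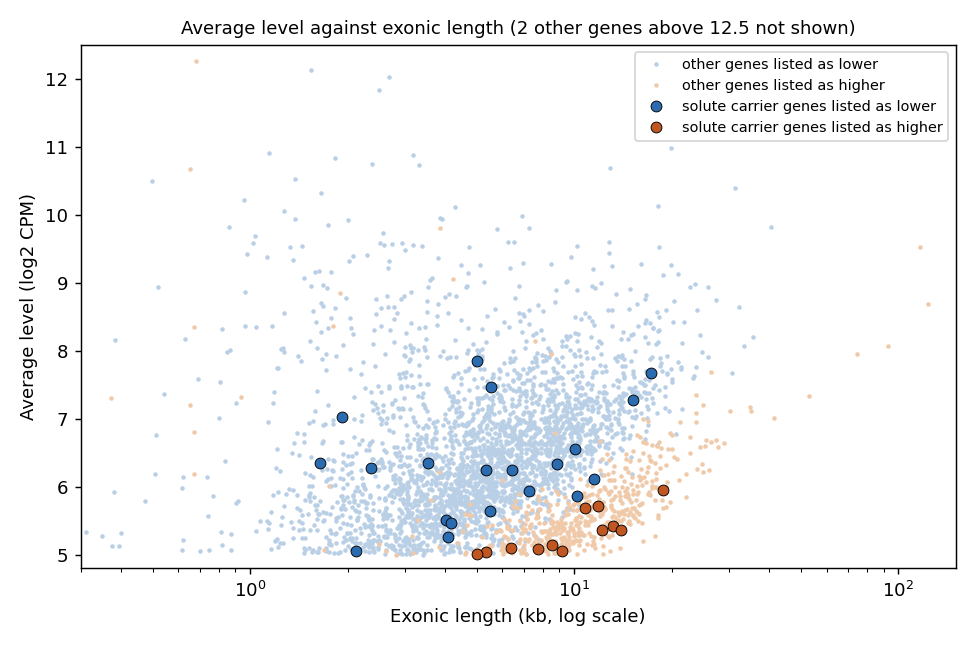
Average level (vertical axis, log2 CPM) against exonic length (horizontal axis, kb, log scale) for listed genes, with the 32 solute carrier genes as large points and the other listed genes as small points. The 12 higher solute carrier genes (orange) lie at or below 5.95 and 10 of them at 6000 bases or more, along the lower edge of the lower genes (blue). The 2 genes above the top of the axis are not drawn.

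Promoters were matched for 21 of the 32 genes, 12 lower and 9 higher. Genes without an entry included Slc38a1, Slc1a5, Slc2a3, Slc39a6 and Slc25a51 among the lower and Slc6a15, Slc7a2 and Slc16a7 among the higher. The ratio of CpG observed to CpG expected from base composition had a median of 0.795 for the lower genes (range 0.132 to 1.07) and 0.271 for the higher genes (range 0 to 1.06). For all listed genes with a promoter the medians were 0.827 (2329 lower) and 0.447 (402 higher), and for the 267 solute carrier genes in neither list it was 0.587. A ratio below 0.3 was found for 1 of 12 lower genes, Slc4a7, and for 5 of 9 higher genes, which were Slc1a2 (0.0641), Slc1a3 (0.197), Slc7a11 (0.271), Slc26a3 (0.0862) and Slc28a2b (0). Of all listed genes with a promoter, 7.56% of the lower and 36.1% of the higher had such a ratio. For 4 genes the window belongs to a start over 1000 bases inside the gene, namely Slc3a2 and Slc4a7 among the lower and Slc1a2 and Slc26a3 among the higher. Without these, a choice made after the values were seen, the median ratio was 0.834 for 10 lower and 0.484 for 7 higher genes, and a ratio below 0.3 was left for 0 lower and 3 higher genes. Slc4a4, with 1.06, and Slc5a8, with 0.733, were the higher genes with the most CpG-rich windows.

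**Figure D4:**
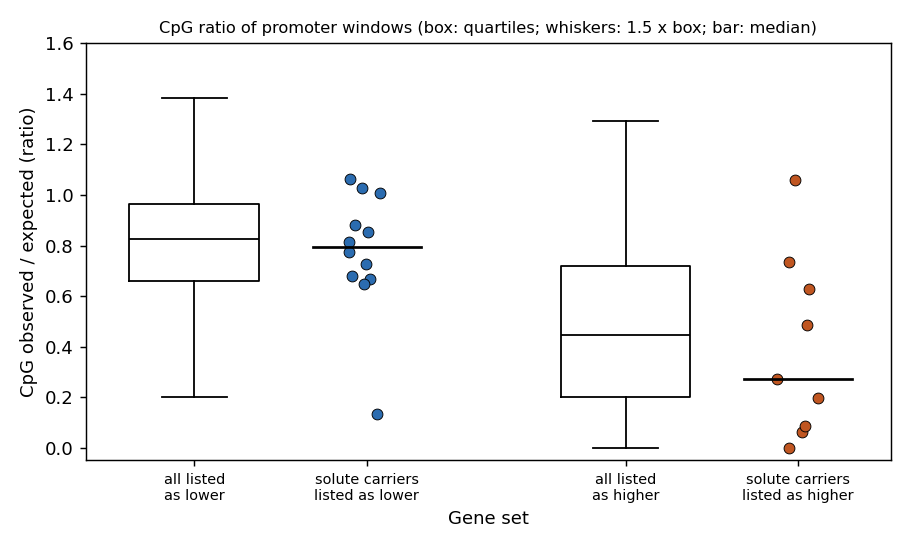
Ratio of observed to expected CpG (vertical axis) in the 300-base promoter window of listed genes, as boxes for all genes of each list and points for the solute carrier genes with their median as a bar. The median is 0.795 for 12 lower (blue) and 0.271 for 9 higher (orange) solute carrier genes.

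Short motifs were searched on both strands of the same windows. The GATA motif AGATAA was in 1 of 12 lower promoters (Slc25a5) and 2 of 9 higher promoters (Slc8a1 and Slc24a2), and in 11.4% of all 27025 promoters. The GC box GGGCGGGG was in 5 lower promoters (Slc38a2, Slc38a10, Slc7a1, Slc25a3 and Slc9a3r1) and in 1 higher promoter (Slc5a8), and in 17.8% of all. All promoters had a median CpG ratio of 0.389, against 0.827 for all genes listed as lower and 0.447 for those listed as higher. The share of motifs over all genes of each list was not taken. The ETS motif CCGGAAGT was in none of the 21, and in 3.99% of all. The amino acid response motif TGATGNAA, which is known as a binding site of ATF4, was in none of the lower promoters and in 1 higher promoter, that of Slc7a11, and in 4.06% of all. The Slc7a11 window printed above holds it as TGATGCAA on each strand, 66 and 47 bases before the start. A match is a description of the letters and no measure of binding.

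Of the other proteins that solute carriers work with, 5 of 10 were listed as lower and none as higher, beside 13.2% and 2.30% of all protein-coding genes. Emb and Bsg, the membrane glycoproteins that bring Slc16 carriers to the cell surface, had an average log2 CPM of 8.28 and 6.37. Vdac2, Vdac3 and Vdac1, the pores of the outer mitochondrial membrane through which substrates reach the Slc25 carriers, had 6.07, 5.88 and 5.60. Embigin, the usual partner of Slc16a7, was thus listed as lower and Slc16a7 as higher. The pyruvate carrier genes Mpc1 and Mpc2, the heme exporters Flvcr1 and Flvcr2 and the calcium channel Mcu were in neither list. Of 16 chosen genes of P-type pumps and their subunits, 6 were listed as lower (37.5%, beside 13.2% of all protein-coding genes) and none as higher (2.30% of all). The choice does not hold every P-type pump, so the share is not one of the whole class. The lower genes included the sodium pump subunit Atp1b3 (5.05) and the calcium pumps of the plasma membrane Atp2b1 (8.25) and Atp2b4 (7.38). Those of the endoplasmic reticulum were Atp2a3 (7.47) and Atp2a2 (7.41), each with its average log2 CPM. The calcium pumps were thus in the opposite list to the calcium exchangers Slc8a1 and Slc24a2.

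Markers of the sorted cell type and of other lung cells were looked up in the same lists. All 10 ILC2 markers were listed, each as lower, from Klrg1 at an average log2 CPM of 6.47 to Il1rl1 at 9.98. This is 100%, beside 13.2% of all protein-coding genes. Of the T cell markers, Cd3g was listed as lower (6.12) and the other 6 were in neither list. That share, 14.3%, is near the 13.2% of all protein-coding genes. No marker of B cells (3), macrophages or monocytes (6) or epithelium (4) was listed, and of 5 markers of endothelium and fibroblasts Col1a2 was listed as higher (5.68). Of the astrocyte and neuron markers Gfap, Aqp4, Snap25 and Rbfox3, none was listed, although Slc1a2, Slc1a3, Slc6a15 and Slc24a2 are best known from those cells. The part of other cell types in the listing of solute carrier genes was not tested.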

How the data were processed

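RNA of tdTomato- and tdTomato+ lung ILC2s was sequenced. Per the study's methods, the authors checked read quality with FASTP, aligned them with STAR to GRCm39, counted them with featureCounts and compared the populations with edgeR. The submitters' processing notes name mm10, and tool versions are not given in the sources used here. The 2 deposited tables hold an average log2 CPM, computed by the authors, and the columns of their own comparison (log2 fold change, likelihood ratio, p-value and FDR), which were not used. The number of unused columns of single libraries is 0. Depth is unknown, so no interval, floor or test is given, and the planned counts and medians are descriptions.

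Genes were matched by Ensembl identifier to GENCODE M21 on GRCm38 (3437 of 3439), which is not the authors' annotation, for exonic length (union of exons), coding length and span. CPM was taken as 2 to the power of the average. Each gene was cut into 50-base stretches to count those found in other genes. Transport groups were set by family number, with exceptions by gene. The rule for named genes took all higher genes, in each transport group the 4 lower genes with the highest and the 1 with the lowest average log2 CPM, all genes of families in both lists, listed partners, and others where a count of 5 or fewer was given. From these groups and lists, 4 genes are not reported here by name and remain in all counts and medians. The genes and lists were chosen with earlier results of these data known. Scripts were tested on simulated data. Alternatives were a stricter level, carriers only, coding length, groups by family number alone and leaving out the gene with the highest value, and, after seeing the data, a level of 5.5 and promoter windows within 1000 bases of the gene start. Python 3.11.15, numpy 2.4.6, scipy 1.17.1 and matplotlib 3.10.9 were used.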

Additional observations from a re-analysis of the deposited data

How the results depend on the processing

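The counts rested on genes of low average level. With an average log2 CPM of at least 6, 13 lower solute carrier genes were left and 0 higher ones, so the percent of higher genes fell from 37.5 to 0, while 5.69% of all 2057 genes left were higher. By group, the higher genes fell to 0 for amino acid, ion, nucleotide and organic solute carriers, and the lower genes fell to 3 mitochondrial, 2 ion and 0 sugar carriers, with 7 of 8 amino acid carriers left. The median level of higher genes had no value there. At a limit of 5.5, added after seeing the data, 17 lower and 3 higher solute carrier genes were left (15% higher, beside 10.5% of all genes left). Per kb of coding length in place of exonic length, the medians were 48.1 CPM for lower and 18.6 CPM for higher genes, with the same order. Without Slc9a3r1, or with groups set by family number alone, the scaffold group had 0 genes, and the latter put Slc9a3r1 among 5 lower ion carriers. In the other 31 values counts moved by less than 1.5 times, the median log2 CPM lay between 6.25 and 6.36 for lower and between 5.14 and 5.25 for higher genes, and without the gene with the highest level the medians per kb were 11.4 and 4.12 CPM. The promoter CpG ratio kept its order with windows near the gene start alone, 0.834 for lower and 0.484 for higher genes. No paired analysis was possible because values of each library were not among the deposited data used here. For the same reason the planned replicate block and the planned leaving out of each replicate were not run, and what depth limits is unknown.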

Other observations

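ABC transporters, which use ATP directly to move lipids, drugs and peptides, were also in both lists. Of 50 annotated, 9 were listed as lower (18%) and 11 as higher (22%), beside 13.2% and 2.30% of all protein-coding genes. The lower genes included the lipid transporter Abca2, with an average log2 CPM of 7.91, and the glutathione conjugate exporter Abcc1, with 6.90, and their lowest value was 5.59 (Abcf2). The higher genes ran from Abca13, with 6.79, and Abca12, with 6.37, to Abcb5, with 5.18. Per kb of exon, Abca2 had 28.7 CPM and Abcc1 7.90 CPM, and Abca13 and Abca12 both had 5.60 CPM. The lists overlapped on this scale, since the higher genes Abcb5 (8.25 CPM) and Abca6 (7.97 CPM) lay above the lower gene Abcc1.

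Of 21 genes of amino acid sensing, 3 were listed as lower (14.3%) and none as higher, shares near the 13.2% and 2.30% of all protein-coding genes. These were Sesn3, a regulator of mTORC1, with an average log2 CPM of 7.27 (10.1 CPM per kb), Atf4, the transcription factor of the amino acid response, with 6.23 (31.8 CPM per kb), and Rragc, a GTPase that recruits mTORC1 to lysosomes, with 5.43 (12.9 CPM per kb).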
